A study of Mus musculus with 12 samples.

Results

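The cytosolic ribosomal protein genes were followed through mouse thymocyte populations that carry or lack the helix-loop-helix inhibitors Id2 and Id3. They were taken as every row of the deposited expression table whose symbol is Rpl or Rps with a number, or Rplp0, Rplp1 or Rplp2, without the pseudogene entries (symbols with -ps) and without the Rps6k kinases. This gave 83 entries of 11815 rows. Of these, 76 are the standard genes, 46 for the large subunit and 30 for the small subunit. The other 7 are paralogs or copies (Rpl22l1, Rpl7l1, Rps27l, Rps3a2, Rps3a3, Rps12l1 and Rps12l2), and RefSeq lists Rps3a2, Rps3a3 and Rps12l1 as pseudogenes.

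The table holds 11 RNA-seq libraries of thymocytes sorted from mice aged 4 to 5 weeks, with pools of 2 to 3 mice behind a replicate. CD4+ CD8+ double-positive (DP) thymocytes, the common precursors of αβ T cells, came from wild-type (WT) mice, sorted as TCRγδ-, and from L-DKO mice, whose label gives a CD1dTet- gate instead. Invariant natural killer T (iNKT) cells, which recognise lipid on CD1d, were sorted as CD1dTet+ TCRβ+ from WT and L-DKO mice, and γδ T cells as TCRγδ+ CD3+ from WT and Id3KO mice. L-DKO mice carry floxed Id2 and Id3 with Cre driven by the Lck promoter, so the deletion begins within the T lineage, and Id3KO mice lack Id3 in the germ line. WT iNKT had 1 library and each other group had 2, called a and b here in the order of the table. Wild-type titles name B6 mice, and the study used C57BL/6 mice or hybrids of that strain with 129. Far more cells were sorted from the mutant than from the WT mice, so cell input and genotype cannot be told apart. Among WT mice far fewer iNKT and γδ cells than DP cells were sorted. Cell input and cell type therefore cannot be told apart in comparisons with WT DP.

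Ribosomal proteins assemble with ribosomal RNA into the small subunit, which decodes the message, and the large subunit, which forms peptide bonds. Their messages are among the most abundant in a cell and typically begin with a run of pyrimidines, the terminal oligopyrimidine (TOP) motif, through which mTOR and the RNA-binding protein Larp1 set their translation. The transcription factor Myc raises ribosomal protein and ribosome biogenesis genes, and growing lymphocytes build more ribosomes than resting ones, DP thymocytes being mostly small resting cells. Id proteins bind the E proteins (E2A, HEB), which recognise the E-box CANNTG.

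The start regions are shown for features that part of these genes share there, and a link of these features to the differences in level was not tested. RefSeq starts on GRCm38.p6 were listed for 59 of the 83 entries, 70 starts in all. A run of at least 8 C or T bases lay within 20 bases of 34 of these starts (48.6%), beside 21.0% of all 32851 starts in the same table. The start base itself was C at 31.4% of the starts and at 16.3% of all starts. The windows below run 5′ to 3′ on the coding strand, from 35 bases before the start to 25 from it, with the C or T run in capitals. Rps9 and Rpl13a are the entries with the highest levels, Rps18, Rpl38 and Rps12 had some of the largest differences between cell types, and Rpl22l1 and Rpl35a varied between libraries. Rplp0, Rpl7l1 and Rps3a1 are shown as starts without such a run.
Rps9 (chr7:3704006-3704065, plus strand): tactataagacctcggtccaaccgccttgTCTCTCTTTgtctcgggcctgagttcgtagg
Rpl13a (chr7:45128721-45128780, minus strand): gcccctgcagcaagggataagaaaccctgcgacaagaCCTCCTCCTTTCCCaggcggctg
Rps18 (chr17:33955641-33955700, minus strand): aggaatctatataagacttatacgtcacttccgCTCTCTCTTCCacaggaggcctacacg
Rpl38 (chr11:114668545-114668604, plus strand): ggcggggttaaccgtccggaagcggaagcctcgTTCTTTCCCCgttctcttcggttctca
Rps12 (chr10:23787185-23787244, minus strand): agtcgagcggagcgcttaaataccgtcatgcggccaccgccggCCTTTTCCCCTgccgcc
Rpl22l1 (chr3:28805473-28805532, plus strand): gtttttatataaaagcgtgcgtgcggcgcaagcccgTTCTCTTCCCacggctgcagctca
Rpl35a (chr16:33056447-33056506, plus strand): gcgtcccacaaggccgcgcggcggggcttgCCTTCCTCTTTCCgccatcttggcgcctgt
Rplp0 (chr5:115559432-115559491, plus strand): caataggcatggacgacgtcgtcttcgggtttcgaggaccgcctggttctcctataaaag
Rpl7l1 (chr17:46782632-46782691, minus strand): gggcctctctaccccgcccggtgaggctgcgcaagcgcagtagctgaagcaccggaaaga
Rps3a1 (chr3:86142644-86142703, minus strand): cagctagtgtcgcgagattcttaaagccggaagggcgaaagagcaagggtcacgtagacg

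Over the whole 300-base windows, read on both strands, the core of ETS factor sites CCGGAA was found at 48.6% of the ribosomal protein starts and 14.9% of all starts. GGGCGG, the Sp1 box, was found at 61.4% and 35.7%. Any E-box CANNTG was present at 48.6% of the ribosomal protein starts against 72.3% of all, and its form CAGGTG at 7 of the 70 starts against 20.2% of all. The Myc-type E-box CACGTG, which is also counted as CANNTG, was found at 11.4% against 7.15%, and TATAAA at 7 of the 70 starts against 13.6% of all. These are counts of letters in a window, not of bound sites.

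The deleted genes were read first. Id2 was at 2.25 and 2.64 FPKM in WT DP against 0.127 and 0.266 in L-DKO DP, and at 553 in WT iNKT against 0 and 0.199 in L-DKO iNKT. Id3 was at 53.8 and 36.9 in WT DP against 6.16 and 3.09 in L-DKO DP, but at 42.4 in WT iNKT against 30.5 and 22.8 in L-DKO iNKT, where it was thus not much reduced. In γδ cells Id3 was at 157 and 96.7 in WT and 3.95 and 3.07 in Id3KO. The libraries match their labels for Id2 and Id3 apart from Id3 in L-DKO iNKT, and which part of the gene the remaining reads cover cannot be seen in gene totals.

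By FPKM, ribosomal protein messages were lowest in WT DP cells and highest in Id3KO γδ cells. The median of the 83 entries was 102 and 89.2 FPKM in WT DP a and b, FPKM being fragments scaled by transcript length and by the mapped fragments of the library. It was 152 and 151 in L-DKO DP, 169 and 231 in WT γδ, 349 in WT iNKT, 330 and 299.7 in L-DKO iNKT, and 418 and 462 in Id3KO γδ. These medians did not overlap between groups, and WT iNKT lay just above L-DKO iNKT a. The summed level of the 83 entries was 10018 and 8508 FPKM in WT DP, 15206 and 15248 in L-DKO DP, 17967 and 23500 in WT γδ, 37554 in WT iNKT, 32422 and 30681 in L-DKO iNKT and 44539 and 49277 in Id3KO γδ. Group means of log2(FPKM + 1) were lowest in WT DP for 81 entries and highest in Id3KO γδ for 78. The exceptions at the low end were Rpl35a, lowest in WT γδ, and Rps3a1, lowest in L-DKO DP. FPKM values are relative to each library, so fewer cells of a type and less RNA per cell cannot be told apart.

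**Figure D1:**
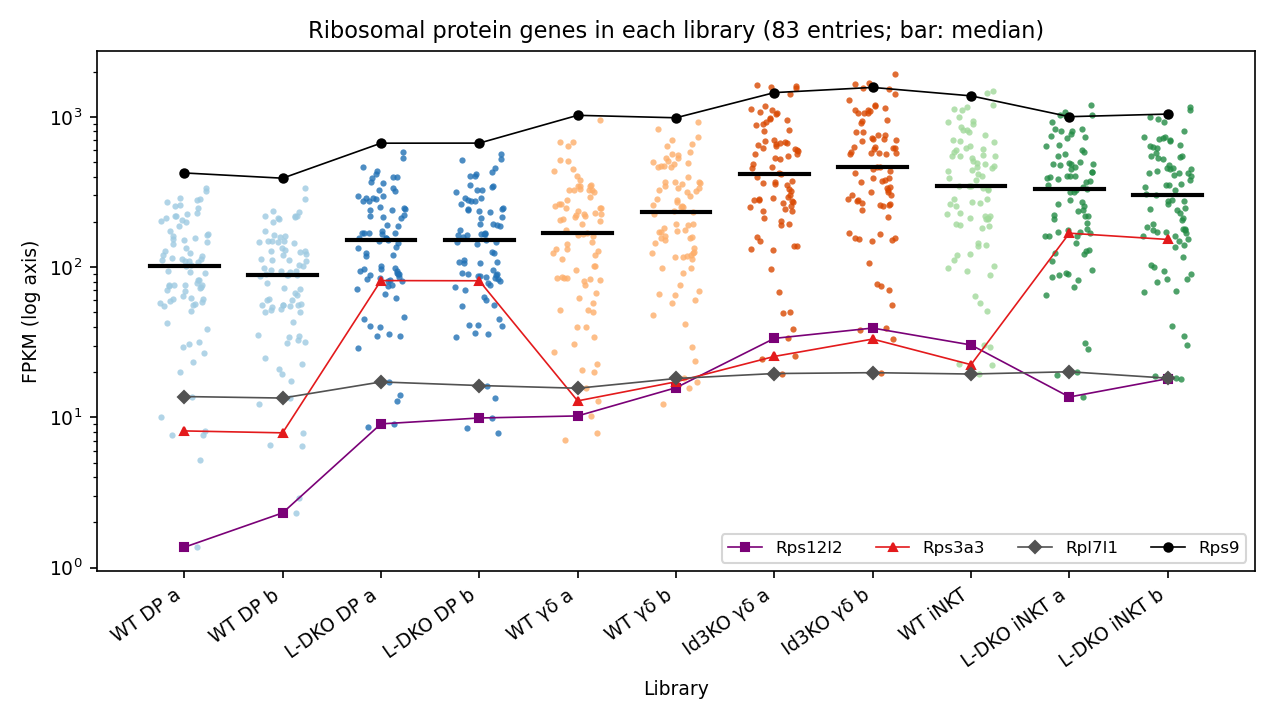
FPKM of the 83 ribosomal protein entries (points, log axis) in each of the 11 libraries, with the median of each library as a bar and 4 entries joined by lines. The medians run from 89.2 FPKM in WT DP b to 462 in Id3KO γδ b, while Rpl7l1 stays between 13.4 and 20.1 FPKM and Rps3a3 is high only in the 4 L-DKO libraries.

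As a share of all FPKM, the 83 entries held 1.78% and 1.71% in WT DP, 2.17% and 2.27% in L-DKO DP, 2.60% and 2.52% in WT γδ, 3.68% in WT iNKT, 6.25% and 5.93% in L-DKO iNKT and 5.59% and 7.29% in Id3KO γδ. Here the L-DKO iNKT libraries stood clear of WT iNKT, whose total FPKM of 1020310 was the highest of all libraries beside 518764 and 517268 in L-DKO iNKT. With small RNA, receptor segments and predicted genes left out of the total, WT iNKT had 9.35% and L-DKO iNKT 8.98% and 8.96%. The place of WT iNKT relative to L-DKO iNKT therefore depended on what the level was divided by. L-DKO iNKT and Id3KO γδ also overlapped as shares of all FPKM. They did not overlap with the smaller total, where Id3KO γδ had 11.5% and 12.6%.

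The entries kept much the same ranking in every group. Pearson correlations of the group means across the 83 entries were 0.94 to 0.99, as a description across genes. Rps9, near the decoding site, Rpl13a, known for halting translation of inflammatory messages in human myeloid cells, and the very short Rpl41 were highest on average. Rps9 was at 423 and 391 FPKM in WT DP, 668 and 669 in L-DKO DP, 1024 and 986 in WT γδ, 1451 and 1571 in Id3KO γδ, 1380.2 in WT iNKT and 1003 and 1044 in L-DKO iNKT. Rps9 thus did not overlap between WT and mutant cells in any of the 3 cell types, higher in mutant DP and γδ cells and lower in mutant iNKT cells. The lowest on average were Rps12l2, Rps23 and Rpl7l1. The sum of the large-subunit genes was 1.11 to 1.28 times that of the small-subunit genes in the 11 libraries, with WT iNKT at the low end and WT γδ a at the high end.

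WT iNKT cells and WT γδ cells both carried more ribosomal protein message than WT DP cells. In WT iNKT against WT DP, limma on log2(FPKM + 1), with p-values adjusted over all 11815 rows by Benjamini-Hochberg and a threshold of 0.05, called 79 of 83 entries higher and none lower. In the same comparison 16.3% of all rows were called higher and 8.73% lower. The median difference was 1.93 (3.82-fold) beside 0.11 for all rows, and all 83 entries in the single WT iNKT library lay above both WT DP libraries, where 48.3% of all rows lay above and 37.1% below. The 4 entries not called were Rpl7l1, Rps27l, Rpl35a and Rps27. Since WT iNKT has 1 library, its spread was assumed to be that of the other groups. Scaling all libraries to the same total FPKM lowered the count to 49, and that over all rows from 1920 to 707. The median of the 83 entries was then 1.03 beside -0.73 for all rows.

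The largest rises were in Rps12, a small-subunit protein, and its copies. Rps12 had 10.1 and 12.3 FPKM in WT DP and 99.3 in WT iNKT, a difference of 3.05 ± 0.34 (SE, adjusted p = 0.00092). Rps12l2 rose by 3.48 ± 0.32 and Rps12l1 by 3.40 ± 0.35, and these 3 entries may share reads. Rpl38, whose loss in mice alters axial skeletal patterning, went from 155 and 129 to 1000.2 FPKM, a difference of 2.81 ± 0.34. Rps18, of the small-subunit head, went from 93.9 and 90.4 to 581 FPKM (2.64 ± 0.23). The 5 are far above the median entry, and Rpl7l1, a relative of Rpl7 with a role in ribosome assembly, is at the other end with 13.8 and 13.4 FPKM in WT DP and 19.4 in WT iNKT.

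The stalk proteins, which recruit translation factors to the ribosome, moved with the rest. Rplp0 went from 187 and 148 to 623 FPKM (1.90 ± 0.22), Rplp1 from 201 and 146 to 926 (2.43 ± 0.25) and Rplp2 from 151 and 134 to 637 (2.16 ± 0.19). Rpl5 and Rpl11, which travel with the 5S RNA and can bind the p53 inhibitor Mdm2, rose less, by 1.34 ± 0.19 and 1.42 ± 0.23. All 5 passed the test in WT iNKT. Rpl22, which αβ T cell development needs in mice, went from 121 and 113 FPKM to 392 (1.74 ± 0.31). Its paralog Rpl22l1 went from 7.68 and 6.47 to 29.3, a call lost in 8 fits with a library left out. Rpl22l1 was at 4.79% to 10.5% of Rpl22 over the 11 libraries, and libraries of 1 group could differ as much as groups did, as in WT γδ (5.90% and 10.5%).

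In WT γδ against WT DP, 57 of 83 entries were called higher and none lower, where 14.6% of all rows were called higher and 6.03% lower. The median difference was 1.05 (2.07-fold) beside 0.11 for all rows. At the same total FPKM higher calls over all rows fell from 1725 to 618, and the median of the 83 entries was 0.45 beside -0.43 for all rows. The 5 largest rises among the 57 calls were Rps12l1 (2.36), Rps12l2 (2.29), Rpl3 (1.69), Rps19 (1.67) and Rps18 (1.65). Rpl3, at the peptidyl transferase centre, had 69.7 and 56.0 FPKM in WT DP and 237 and 174 in WT γδ. Rps19, the gene most often mutated in Diamond-Blackfan anaemia, had 108 and 94.5 against 352 and 297. The groups were well apart for both. Rpl35a alone had a difference below 0, at -0.13, with 81.5 and 88.0 FPKM in WT DP and 49.9 and 120 in WT γδ on either side of them. Without WT DP b the count of calls was 29, and with all libraries at the same total FPKM it was 16.

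WT iNKT had higher values than WT γδ for all 83 entries, by a median of 0.88 (1.84-fold) beside 0.03 for all rows, but limma called none of them. Of all rows, 1.22% were called higher and 1.56% lower. At an unadjusted p under 0.05 there were 63 entries, beside 18.2% of all rows. The WT iNKT library lay above both WT γδ libraries in 82 entries and below both in none, where 39.3% and 36.0% of all rows did so. Without WT γδ b, 30 entries were called.

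The step from DP to iNKT cells was also present in the mutant. L-DKO iNKT against L-DKO DP gave 61 entries called higher and none lower, where 13.4% of all rows were called higher and 10.8% lower, with a median of 1.03 (2.04-fold) beside -0.01 for all rows. Among the large rises were Rpl3 (1.67), Rps18 (1.65), Rpl36a (1.51) and Rps4x (1.42). Rps18 had 170 and 158 FPKM in L-DKO DP and 483 and 552 in L-DKO iNKT, with the groups well apart. Rps3a1 and Rps27l were among those with no call, and Rps27l, a paralog of Rps27 that p53 induces, had 65.9 and 63.4 FPKM in L-DKO DP and 73.5 and 40.6 in L-DKO iNKT. The count was 26 without L-DKO DP a, 27 without L-DKO DP b and 34 without L-DKO iNKT a.

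**Figure D2:**
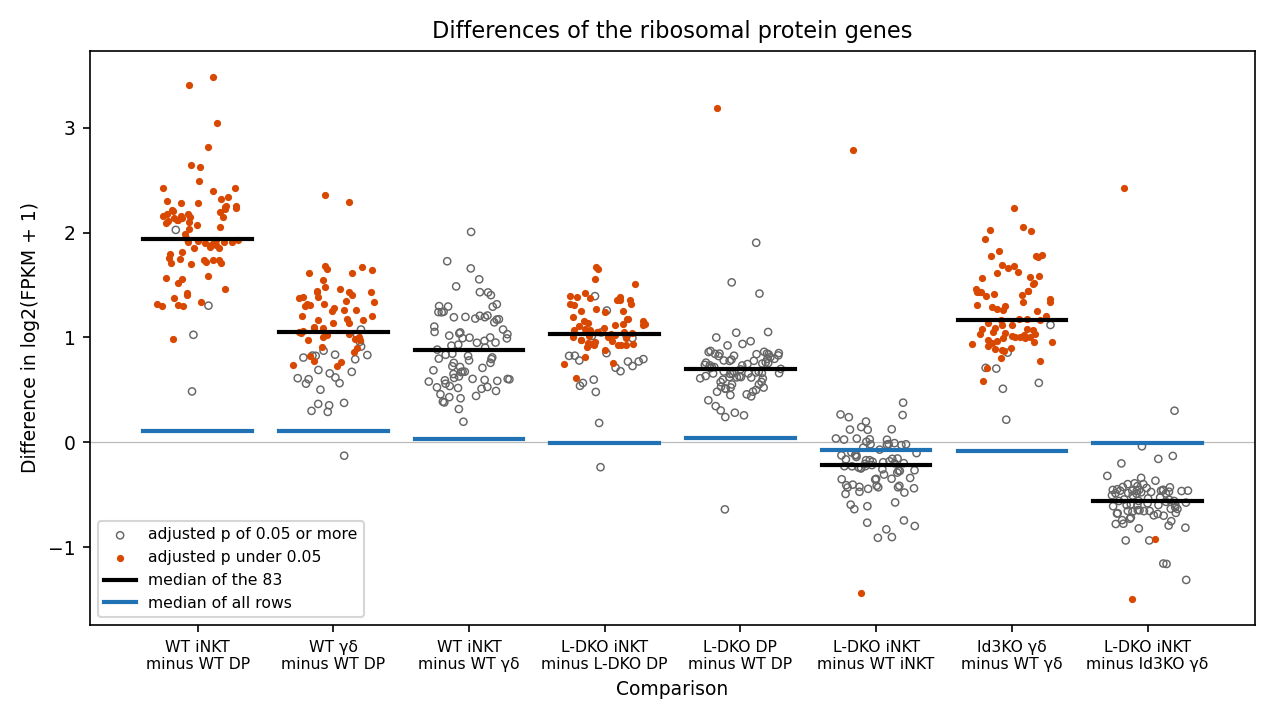
Differences in log2(FPKM + 1) of the 83 entries (points, filled where the adjusted p was under 0.05) in 8 comparisons, with the median of the 83 in black and that of all 11815 rows in blue. The black bars lie well above the blue ones except in L-DKO iNKT against WT iNKT (-0.22 and -0.07) and L-DKO iNKT against Id3KO γδ (-0.56 and -0.01).

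In DP cells ribosomal protein messages were somewhat higher in L-DKO than in WT, and nearly no single gene passed the test. L-DKO DP exceeded WT DP in 82 of 83 entries, by a median of 0.69 (1.62-fold) beside 0.04 for all rows, and in these 82 both L-DKO DP libraries lay above both WT DP libraries, where 31.3% of all rows did so and 23.9% lay below. Only Rps3a3 was called higher and none lower. The background was 0.118% of rows called higher and 0.0592% lower. At an unadjusted p under 0.05 there were 59 entries, beside 11.3% of all rows. Rpl9, a large-subunit protein near the median of the set, had 104 and 93.0 FPKM in WT DP and 152 and 151 in L-DKO DP. Rpl41 had 271 and 218 against 462 and 514, and Rps6, the target of S6 kinase, 111 and 86.8 against 134 and 148. After Rps3a3 the largest difference was in Rps12l2 (1.90 ± 0.26, adjusted p = 0.054), at 1.36 and 2.31 FPKM in WT DP and 9.04 and 9.90 in L-DKO DP.

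In iNKT cells the libraries labelled L-DKO differed little from WT. The median difference of the 83 entries was -0.22 (0.860-fold) beside -0.07 for all rows, with 16 entries above 0. Rps3a3 was called higher and Rps3a1 lower, where 2.18% of all rows were called higher and 3.88% lower. At an unadjusted p under 0.05 there were 7 entries, a smaller share than the 18.7% of all rows. Both L-DKO iNKT libraries were below the WT iNKT library in 60 entries and above it in 8, where 44.1% and 31.5% of all rows were. Rps14, lost in the human 5q- syndrome, had 855 FPKM in WT iNKT and 476 and 529 in L-DKO iNKT (-0.77 ± 0.20, adjusted p = 0.069, and 0.21 at the same total FPKM). Rps21 had 1449.7 against 739 and 803, and Rpl38 1000.2 against 545 and 579, so these 3 were well below the single WT library. Rpl8 overlapped it, at 814 against 1081 and 725, and Rps2 had 286 against 110 and 245. The sign of the median was not stable. It was 0.75 with 18 entries called higher at the same total FPKM. That scaling moved the median of all rows to 0.80, with 3408 of 11815 rows called higher and 219 lower. After quantile normalization the median of the 83 was 0.092.

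Rps3a1 and Rps3a3 stood apart from all other entries. Rps3a1 is the gene for a small-subunit protein, on chromosome 3, and RefSeq lists Rps3a2 on chromosome 14 and Rps3a3 on chromosome 13 as pseudogenes. Rps3a3 had 8.12 and 7.88 FPKM in WT DP and 81.3 and 81.1 in L-DKO DP, a difference of 3.19 ± 0.20 (9.13-fold, adjusted p = 0.0017). It had 22.4 in WT iNKT and 168 and 153 in L-DKO iNKT, a difference of 2.78 ± 0.25 (adjusted p = 0.0016). In γδ cells it had 12.9 and 17.2 in WT and 25.4 and 33.2 in Id3KO, a difference of 0.92 that lost its call without WT γδ a or without Id3KO γδ b (adjusted p 0.10 in each). The 4 L-DKO libraries were thus far above the 7 others.

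Rps3a1 went the other way in the L-DKO libraries. It had 75.7 and 54.6 FPKM in WT DP against 40.4 and 41.4 in L-DKO DP (-0.64 ± 0.22, adjusted p = 0.35), and 229 in WT iNKT against 88.3 and 79.2 in L-DKO iNKT (-1.44 ± 0.27, adjusted p = 0.021). The latter call was lost without L-DKO DP a, L-DKO DP b or L-DKO iNKT b (adjusted p 0.051 to 0.053). In γδ cells it had 132 and 160.4 in WT and 212 and 266 in Id3KO. The sum of the 3 Rps3a entries was 107 and 80.0 FPKM in WT DP, 158 and 158 in L-DKO DP, 309 in WT iNKT and 338 and 301 in L-DKO iNKT, 184 and 220 in WT γδ and 287 and 373 in Id3KO γδ. The sum was thus higher in both mutant libraries than in WT in DP and γδ cells, and the iNKT libraries overlapped. Rps3a3 made up 49.7% to 51.6% of the sum in the 4 L-DKO libraries and 6.98% to 9.85% in the 7 others. Such copies can share reads, and no source states how the quantification divided them, so the single entries are uncertain. The study also used hybrid mice, and the part of strain background in this pattern was not tested.

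**Figure D3:**
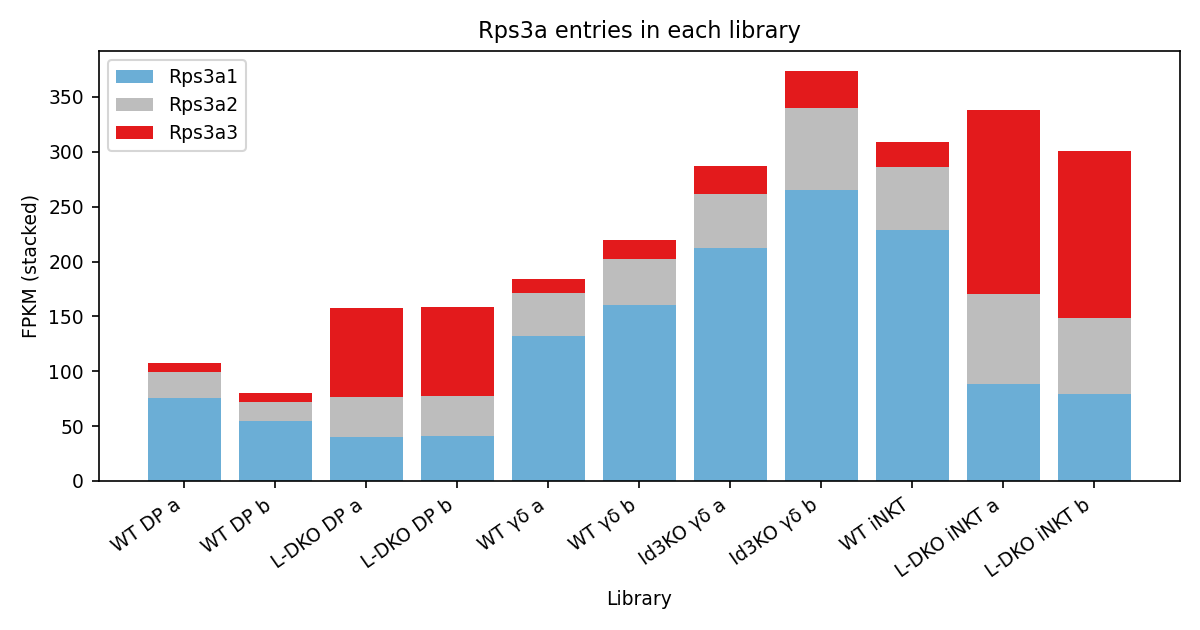
Stacked FPKM of Rps3a1, Rps3a2 and Rps3a3 in each of the 11 libraries. Rps3a3 makes up about the same part of the bar in all 4 L-DKO libraries (49.7% to 51.6%) and a small part in the 7 others (6.98% to 9.85%).

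Id3KO γδ cells had more ribosomal protein message than WT γδ cells, by 2.25-fold for the median entry. Of 83 entries, 76 were called higher and none lower, where 6.8% of all rows were called higher and 8.35% lower. The median difference was 1.17 on the log2 scale beside -0.08 for all rows. Higher calls over all rows went from 803 to 866 after quantile normalization, and to 292 when only the γδ libraries were fitted. In 82 entries both Id3KO libraries were above both WT libraries and in none below, where 24.0% and 32.6% of all rows were. The 7 entries not called were Rpl7l1, Rps27l, Rps3a1, Rps3a2, Rpl8, Rps14 and Rps2. Markers of other cells moved in the same comparison. The 8 DP markers summed to 356 and 447 FPKM in WT γδ and 129 and 165 in Id3KO γδ, with 4 called lower (median -1.93), and their part in the result was not tested. The count of ribosomal protein calls was 32 without WT γδ a, 19 without Id3KO γδ b, 31 after quantile normalization and 7 when only the γδ libraries were fitted.

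The 5 largest rises among the calls were in Rpl39, Rpl35a, Rps27, Rps12 and Rpl37. Rpl39, which lines the exit tunnel, had 62.5 and 279 FPKM in WT γδ and 641 and 611 in Id3KO (2.23 ± 0.58, adjusted p = 0.039). Rpl35a, another gene mutated in Diamond-Blackfan anaemia, had 49.9 and 120 against 334 and 316 (2.05 ± 0.37, adjusted p = 0.012). Rps27 had 34.1 and 113 against 254 and 259.5 (2.02 ± 0.53, adjusted p = 0.040). Rps12 had 27.2 and 48.2 against 132 and 169 (2.02 ± 0.28, adjusted p = 0.0049), and Rpl37 22.5 and 60.2 against 138 and 151 (1.94 ± 0.42, adjusted p = 0.022). The mutant libraries were far above WT in all 5, but WT γδ a was well below WT γδ b in each of them. With a library left out, the call was lost in 9 fits for Rpl39, 7 for Rps27 and 3 for Rpl37, and in none for Rpl35a and Rps12.

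The stalk and 5S-binding proteins were steadier between the WT γδ libraries. Rplp0 had 453 and 465 FPKM in WT γδ and 967 and 1114 in Id3KO (1.18 ± 0.18, adjusted p = 0.0066). Rplp1 differed by 1.37 and Rplp2 by 0.89, the call for Rplp2 being lost in 1 fit, without a library, at an adjusted p of 0.051. Rpl5 had 120.1 and 126 against 235 and 262 (1.01 ± 0.15, adjusted p = 0.0066). Rpl11 had 230.2 and 231 against 375 and 434, a call lost in 5 fits with a library left out. Rps9 rose least among the called genes, by 0.59 ± 0.15 (adjusted p = 0.037), lost its call in 8 such fits, and was at an uncalled -0.21 after quantile normalization. Rpl22 had 133 and 225 against 484 and 586, and Rpl22l1 7.82 and 23.7 against 38.8 and 56.0. Rpl7l1, at 15.6 and 18.1 against 19.6 and 19.8, again hardly differed (0.21 ± 0.16, adjusted p = 0.38).

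The WT γδ libraries differed from each other by coding length. In 70 of 83 entries library b was above library a, by a median of 0.40 on the log2 scale, and a median distance between replicates of 0.43 compared with 0.06 to 0.26 in the other groups. A coding length was found for 78 entries. Those under 400 bases (25 entries) had a median b minus a of 1.06, those from 400 to under 600 (29 entries) 0.31 and those of 600 or more (24 entries) 0.07. Spearman's rho with coding length was -0.67 across these genes, which share the same libraries, against -0.20 to 0.25 within the other groups with 2 libraries. The other genes under 400 bases (316) had a median of 0.37. Rps29, a zinc-binding small-subunit protein, had 249 FPKM in library a and 733 in b, while Rps9 had 1024 and 986.

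A gradient with length was also present in comparisons between groups. In Id3KO γδ against WT γδ the median difference was 1.62 in the short entries, 1.12 in the middle and 1.01 in the long ones, and in WT iNKT against WT γδ it was 1.20, 0.90 and 0.60. In WT γδ against WT DP it ran the other way, at 0.83, 1.03 and 1.34. It was not limited to comparisons with WT γδ: in L-DKO DP against WT DP the medians were 0.83, 0.70 and 0.59 (Spearman's rho -0.52 across genes), and 0.49 in the other genes under 400 bases. In L-DKO iNKT against L-DKO DP they were 1.02, 1.01 and 1.12. The long entries, least apart between the WT γδ libraries, thus also differed by 1.01 between Id3KO and WT. The cause of this gradient was not tested.

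**Figure D4:**
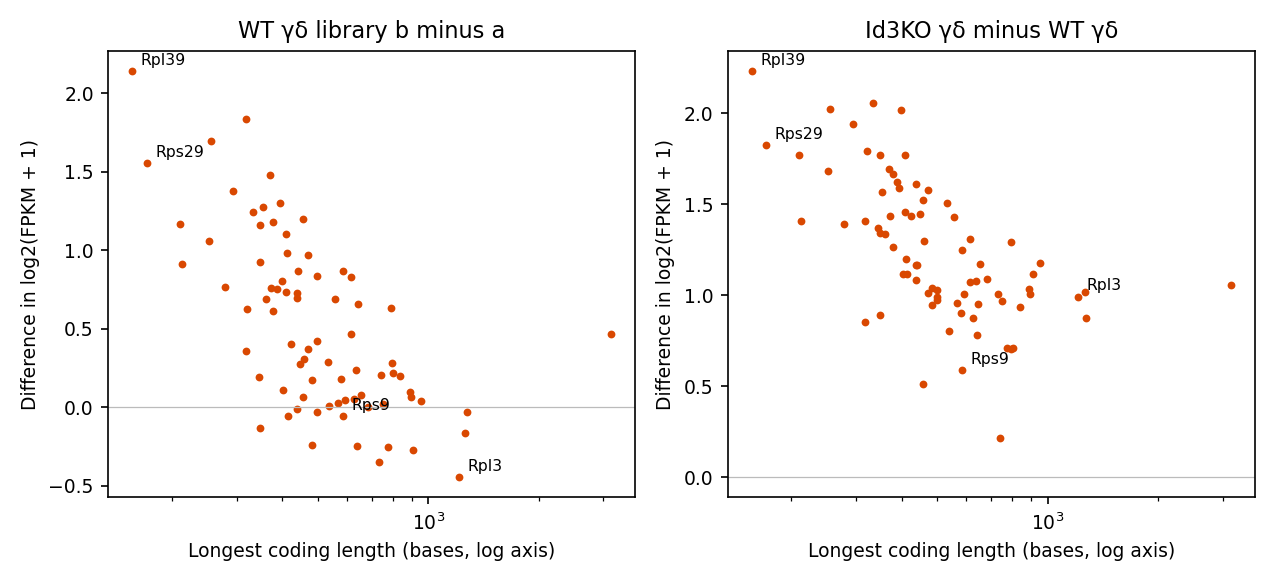
Difference in log2(FPKM + 1) against the longest coding length (log axis) of 78 ribosomal protein entries, between the WT γδ libraries (left) and between Id3KO γδ and WT γδ (right). Short genes such as Rpl39 and Rps29 lie high in both panels, and the genes of 600 bases or more have medians of 0.07 and 1.01.

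The difference between mutant and WT libraries was itself lower in iNKT than in γδ cells for many of these genes. The change in iNKT cells minus that in γδ cells had a median of -1.42 beside -0.02 for all rows. It ran with coding length too, at -1.81 in the short entries, -1.38 in the middle and -1.15 in the long ones. In this interaction 34 entries were called lower and 1 higher, where 3.35% and 3.25% of all rows were. The largest were Rps21 (-2.59 ± 0.50, adjusted p = 0.025), Rps12 (-2.59 ± 0.44, adjusted p = 0.017), Rps12l2 (-2.35 ± 0.42, adjusted p = 0.019), Rpl38 (-2.24 ± 0.44, adjusted p = 0.027) and Rps3a1 (-2.14 ± 0.34, adjusted p = 0.014), and Rps3a3 was higher (1.87 ± 0.32, adjusted p = 0.017). With a library left out, the call was lost in 4 fits for Rps21 (adjusted p 0.053 to 0.060), 4 for Rpl38 (0.055 to 0.062) and 1 for Rps12l2 (0.050). The mutants differ: by its label L-DKO lacks Id2 and Id3, although Id3 was not low in L-DKO iNKT (30.5 and 22.8 FPKM against 42.4), and Id3KO lacks Id3 alone. The count lower was 5 without L-DKO DP a or b, 9 without L-DKO iNKT a, 20 without L-DKO iNKT b, 10 without WT γδ a, 58 without WT γδ b, 6 without Id3KO γδ b, and 3 at the same total FPKM.

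The change in iNKT cells minus that in DP cells was below 0 for all 83 entries, with a median of -0.89 beside -0.12 for all rows. Rps12l2 (-2.81 ± 0.42, adjusted p = 0.024) and Rps14 (-1.55 ± 0.26, adjusted p = 0.035) were called, where 1.24% of rows were called lower and 0.491% higher. The call for Rps12l2 was lost without WT DP a, L-DKO DP a or L-DKO DP b, and that for Rps14 in 7 fits with a library left out. At the same total FPKM the median of the 83 turned to 0.46 while that of all rows was 1.09. Between the mutants, L-DKO iNKT lay below Id3KO γδ by a median of 0.56 on the log2 scale, with both libraries below in 77 entries and above in 1, where 24.8% and 22.9% of all rows were. Rps3a3 was called higher, and Rps3a1 and Rplp0 (-0.93 ± 0.18, adjusted p = 0.032) lower, where 2.07% and 1.9% of rows were called. The call for Rplp0 was lost without L-DKO DP a or b (0.078), L-DKO iNKT a (0.071) or b (0.10), or Id3KO γδ a (0.057) or b (0.11), and 5 entries were called lower without WT γδ a or b. The median of L-DKO iNKT minus Id3KO γδ depended on scaling. At the same total FPKM it was -0.057, with 34 entries above 0, beside 0.45 for all rows. After quantile normalization it was -0.066, with 35 entries above 0, beside 0.02 for all rows.

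Reads of this family also fell on its pseudogenes, of which the table has 132 from 48 parent genes. Their summed FPKM was 7.94% to 9.70% of that of the 83 entries in every library. Their median differences were close to those of the genes, at 1.75 in WT iNKT against WT DP (91 of 132 called higher), 1.14 in Id3KO γδ against WT γδ (63) and 0.52 in L-DKO DP against WT DP (none). Of all rows, 16.3%, 6.8% and 0.118% were called higher in the same order. For Rps12 the pseudogenes outweighed the gene: its 19 pseudogene entries held 82.4% to 89.4% of the sum with Rps12. In every library they also outweighed Rpl17 (64.6% to 73.8%), Rps13 (62.8% to 66.5%), Rpsa (58.8% to 61.0%), Rpl31 (55.9% to 62.4%) and Rps23 (52.6% to 74.8%). The levels of these genes and of Rps12 are thus uncertain, and Rps12l1 was at 23.7% to 73.4% of Rps12. In contrast the pseudogenes of Rps19 held 2.61% to 5.60%. RefSeq places small nucleolar RNA genes within 29 of the standard genes, which often carry them in introns. The standard genes with and without them had medians of 2.10 and 1.93 in WT iNKT against WT DP and 1.08 and 1.20 in Id3KO γδ against WT γδ.

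Other genes of the cytosolic ribosome and its supply followed to different degrees. Rpsa, Fau, Gnb2l1 and Rpl36al are subunit or ribosome-bound genes outside the symbol rule. These 4 were called higher in WT iNKT and in WT γδ against WT DP. In L-DKO iNKT against L-DKO DP and in Id3KO γδ against WT γδ all but Fau were called (0.58, adjusted p = 0.065, and 0.57, adjusted p = 0.091). Rpsa, a small-subunit protein also known as a laminin receptor, had 22.8 and 16.3 FPKM in WT DP, 31.6 and 32.4 in L-DKO DP, 110.2 in WT iNKT, 113 and 106 in L-DKO iNKT, 89.5 and 71.0 in WT γδ and 160.1 and 190.1 in Id3KO γδ.

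Translation factors with TOP messages came next. Of 18, 13 were called higher in WT iNKT against WT DP (median 1.10), 10 in WT γδ against WT DP (0.69), 11 in L-DKO iNKT against L-DKO DP (0.90) and 9 in Id3KO γδ against WT γδ (0.84), and none lower. Eef1b2, part of the exchange factor for elongation factor 1A, had 113 and 92.2 FPKM in WT DP, 519 in WT iNKT and 601 and 599 in L-DKO iNKT, and Eef1a1, elongation factor 1A itself, 700.0 and 569, 2602, and 2415 and 2173. Of 31 other initiation and elongation factors, 6, 9, 8 and 3 were called higher in the same order and none lower (19.4%, 29.0%, 25.8% and 9.68%, the first and last near the 16.3% and 6.8% of all rows), with medians of 0.34, 0.39, 0.40 and 0.38. Mitochondrial ribosomal proteins, which belong to another ribosome, had calls below the shares of all rows: 11, 7, 2 and 3 of 77 were called higher (14.3%, 9.09%, 2.60% and 3.896%, beside 16.3%, 14.6%, 13.4% and 6.8% of all rows) and none lower, with medians of 0.38, 0.31, -0.06 and 0.29. In L-DKO DP and in L-DKO iNKT against WT none of these 3 lists had a call, and their medians were 0.42, 0.21 and 0.36 in DP and 0.17, 0.14 and -0.06 in iNKT.

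Ribosome biogenesis factors were mostly higher where the ribosomal proteins were, and regulators were mixed. Of 55 biogenesis factors, 27 were called higher and 1 lower in WT iNKT against WT DP, 26 and 2 in WT γδ against WT DP, 31 and 2 in L-DKO iNKT against L-DKO DP, and 14 and none in Id3KO γδ against WT γδ, with medians of 0.88, 0.73, 0.84 and 0.61. In the same order, 16.3% and 8.73%, 14.6% and 6.03%, 13.4% and 10.8%, and 6.8% and 8.35% of all rows were called higher and lower. Polr1b, a subunit of RNA polymerase I, had 5.40 and 3.18 FPKM in WT DP, 22.4 in WT iNKT, 12.8 and 11.98 in WT γδ and 38.3 and 34.8 in Id3KO γδ. Wdr12, a large-subunit assembly factor, fell instead, from 57.9 and 73.6 in WT DP to 14.4 in WT iNKT and 11.6 and 16.3 in WT γδ. Of 19 measured regulators, Myc and Larp1 were called higher and Rps6kb1 and Rps6kb2, the S6 kinases, lower in WT iNKT. Myc had 9.50 and 5.20 FPKM in WT DP, 12.9 and 11.6 in L-DKO DP, 28.1 and 26.7 in WT γδ, 50.0 in WT iNKT, 63.6 and 40.1 in L-DKO iNKT and 85.1 and 76.2 in Id3KO γδ, the same order of groups as the ribosomal proteins apart from overlapping iNKT libraries. A link of Myc to the ribosomal protein levels was not tested. In Id3KO γδ Myc rose by 1.52 ± 0.30 (adjusted p = 0.015), and this call was lost in 4 fits with a library left out, while Tsc2, an mTOR inhibitor, fell by 0.74.

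The kinases of ribosomal protein S6 and the p53 targets did not move as a group. Of 8 measured Rps6k genes, Rps6ka2 rose in L-DKO iNKT, from 2.02 FPKM in WT to 17.7 and 47.2, and Rps6ka3 fell from 67.6 to 18.6 and 29.2. Of 10 measured p53 targets, 2 were called higher in Id3KO γδ against WT γδ and 1 in L-DKO iNKT against WT iNKT, where 6.8% and 2.18% of all rows were. The call in L-DKO iNKT was Pmaip1, which promotes apoptosis, at 0.615 FPKM in WT iNKT and 19.7 and 29.5 in L-DKO iNKT. In Id3KO γδ it had 6.70 and 7.74 against 1.28 and 1.18 in WT.

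**Figure D5:**
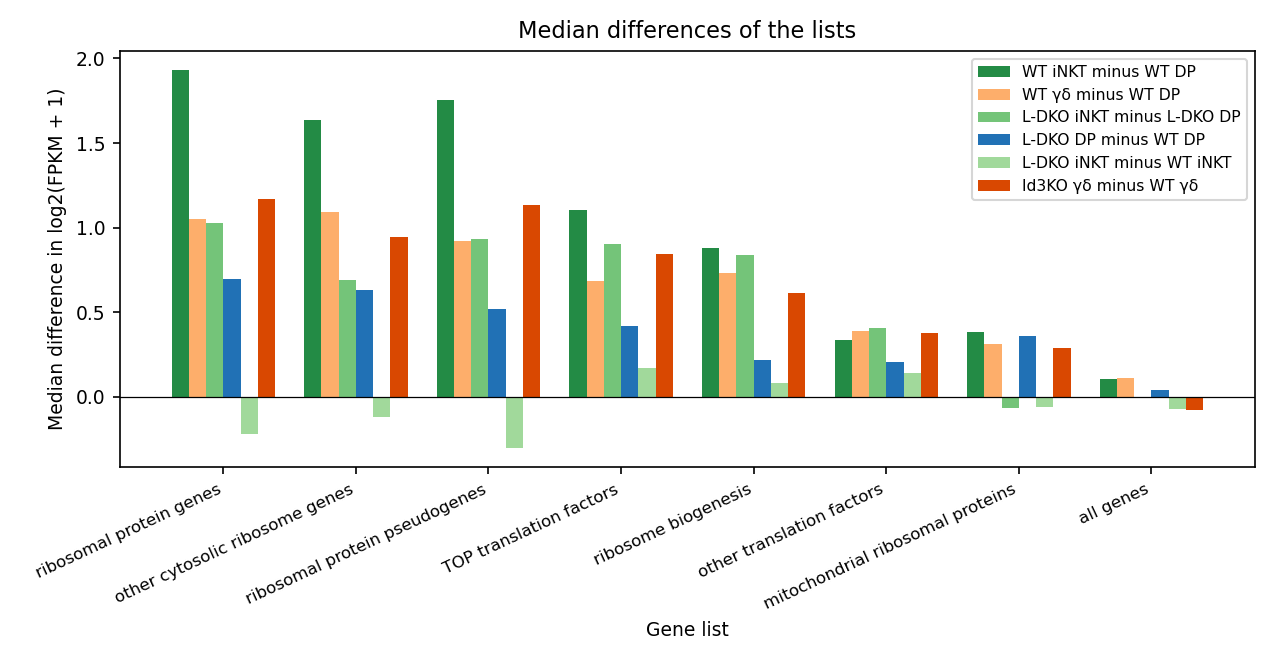
Median difference in log2(FPKM + 1) of each gene list in 6 comparisons (bars, coloured by comparison), beside all genes. The ribosomal protein genes have the highest bars in WT iNKT against WT DP (1.93) and Id3KO γδ against WT γδ (1.17), TOP translation factors are lower (1.10 and 0.84) and mitochondrial ribosomal proteins lower still (0.38 and 0.29).

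Markers of each sort were checked in the same libraries. The 8 DP markers summed to 3188 to 3586 FPKM in DP, 144 to 232 in iNKT, 356 to 447 in WT γδ and 129 to 165 in Id3KO γδ. The 4 measured of 6 iNKT markers summed to 1047 in WT iNKT, 304 to 367 in L-DKO iNKT, 97.9 to 146 in WT γδ, 215 to 299 in Id3KO γδ and 8.16 to 9.00 in DP. The 4 measured γδ markers summed to 853 to 1303 in γδ, 445 in WT iNKT, 6.00 to 24.6 in L-DKO iNKT and 0.949 to 4.49 in DP. Markers of myeloid and dendritic cells (5 of 6 measured) summed to 183 to 217 in WT γδ and 15.99 to 33.9 in Id3KO γδ, to 97.3 in WT iNKT and 19.0 to 29.0 in L-DKO iNKT, and to 7.81 to 30.7 in DP. DP, iNKT, γδ and myeloid markers moved with several of the comparisons above, and their part in the ribosomal protein differences was not tested. Markers of erythroid cells (4 genes) summed to 2.60 to 85.4 and the 2 measured of 5 B cell markers to 72.5 to 336. The only measured marker of 4 for thymic epithelium was at 1.01 to 20.4 FPKM. Sequencing depth is unknown, and total FPKM ran from 498489 to 1020310.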

How the data were processed

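Total RNA was depleted of ribosomal RNA, primed at random and sequenced as stranded pairs. Per the labels and the study's methods, reads were trimmed (Trimmomatic 0.32), aligned to mm10 (TopHat2 2.0.9) and quantified (Cufflinks 2.2.0). The authors deposited log2 values of FPKM after removing low-quality genes. Every value turned back into FPKM of at most 6 significant digits as log2(FPKM + 1), which set the pseudocount of 1. Neither the annotation nor the use of strand in counting is stated in these sources. Columns of the authors' means (5) and ratios (3) were not used, and 1 of 12 samples, a WT iNKT library, has no column.

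A group-means model over 11 libraries was fitted to the log2 values with limma 3.58.1 in R 4.3.3 (empirical Bayes, 5 residual and 2.87 prior degrees of freedom). P-values were adjusted over all 11815 rows by Benjamini-Hochberg. Libraries are pools of mice, so p-values measure the spread between pools. No entry was at 0, and all 83 passed the alternative filter of a mean of 5 FPKM. The script was tested on simulated data. Alternatives were a pseudocount of 0.1, that filter, 3 other scalings, a variance trend and a fit of only the groups compared. Each library was also left out in turn, apart from the single WT iNKT library.

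Named entries were the 3 highest and 3 lowest, the 5 largest rises and falls among calls of a comparison, paralogs, the stalk proteins, Rpl5 and Rpl11, and up to 4 per further list. Others, such as Rpl9 or Rps6, were chosen after their values were seen. The members and lists were chosen with earlier results of these data known. Symbols matched RefSeq (GRCm38.p6) for 82 of 83 entries. Coding lengths are the longest listed for a symbol in GENCODE vM1, used for length only. The main form of a gene can be shorter, and Rpl24 was placed with the long entries at 3153 bases. Some items that the naming rule covers are not reported here.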

Additional observations from a re-analysis of the deposited data

Results flagged for a closer look

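The difference between libraries labelled mutant and WT was not the same in iNKT and γδ cells for 35 of the 83 ribosomal protein entries, by limma's test of the interaction. Of all rows, 3.25% were called higher and 3.35% lower in that test. The largest were Rps21 (-2.59), Rps12 (-2.59), Rps12l2 (-2.35), Rpl38 (-2.24) and Rps3a1 (-2.14), all lower in the iNKT change, and Rps3a3 (1.87), higher in it. Set against DP cells, the change in iNKT cells differed for 2 entries, Rps12l2 (-2.81) and Rps14 (-1.55), where 0.491% of all rows were called higher and 1.24% lower. The iNKT change rests on 1 WT library, and Id3 was not low in L-DKO iNKT (30.5 and 22.8 FPKM against 42.4). The interaction with γδ cells also ran with coding length, with medians of -1.81 in the short and -1.15 in the long entries. The part of the differing total FPKM of the libraries in these differences was not tested beyond the scalings given below. Each of those scalings reduced the count of entries called lower against γδ cells.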

How the results depend on the processing

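Over 340 recomputed counts of called entries, 284 stayed within 1.5 times the reported one, and of 1207 recomputed differences of 71 pairs of gene and comparison 1050 kept their direction and side of the threshold. The 340 cover both directions of each comparison, so the 284 include counts of 0 that stayed 0. The cause of the other changes was not tested unless given. At the same total FPKM the median of all rows moved to 0.80 in L-DKO iNKT minus WT iNKT, -0.73 in WT iNKT minus WT DP, -0.43 in WT γδ minus WT DP, -0.30 in L-DKO DP minus WT DP, -0.28 in WT iNKT minus WT γδ, 0.36 in L-DKO iNKT minus L-DKO DP, 0.45 in L-DKO iNKT minus Id3KO γδ, 0.74 in the iNKT change minus the γδ change and 1.09 in the iNKT change minus the DP change, and in Id3KO γδ minus WT γδ it was 0.03. The share of higher calls among all calls moved with it, from 36.0% to 94.0%, from 65.1% to 14.8%, from 70.8% to 19.6%, from 66.7% to 57.9%, from 43.9% to 31.2%, from 55.4% to 79.3%, from 52.1% to 85.8%, from 49.2% to 88.2% and from 28.4% to 97.0% in the same order, and from 44.9% to 61.5% in Id3KO γδ minus WT γδ. Under that scaling 18 entries were called higher and 0 lower in L-DKO iNKT minus WT iNKT (median 0.75, Rps14 0.21). There 3408 of all 11815 rows were called higher and 219 lower. The same scaling gave 49 entries higher in WT iNKT minus WT DP and 16 higher in WT γδ minus WT DP, where 707 and 618 of all rows were. It gave 1 lower in L-DKO iNKT minus Id3KO γδ, 3 lower in the iNKT change minus the γδ change, and 1 lower in the iNKT change minus the DP change (median 0.46). With small RNA, receptor segments and predicted genes left out of the total, the last 3 counts were 1, 14 and 1. Quantile normalization gave 31 entries higher in Id3KO γδ minus WT γδ (Rps14 -0.20, Rps9 -0.21), a median of 0.092 in L-DKO iNKT minus WT iNKT, and 4 and 1 lower in the changes compared with γδ and with DP. With only the groups compared in the fit, which leaves fewer libraries to estimate the spread, 0 entries were called higher and 0 lower in L-DKO iNKT minus WT iNKT, in L-DKO iNKT minus Id3KO γδ and in the iNKT change minus the γδ change, 7 higher in Id3KO γδ minus WT γδ, 19 higher in WT iNKT minus WT γδ and 4 lower in the iNKT change minus the DP change. The filter of 5 FPKM gave 2 higher in L-DKO DP minus WT DP, 3 higher in WT iNKT minus WT γδ and 5 lower in the iNKT change minus the DP change. A pseudocount of 0.1 and a variance trend each gave 2 higher in L-DKO DP minus WT DP, and the trend 1 lower in the iNKT change minus the DP change. With 1 library left out, counts ran from 0 to 1 lower in L-DKO iNKT minus WT iNKT, 19 to 73 higher in Id3KO γδ minus WT γδ, 67 to 81 higher in WT iNKT minus WT DP, 29 to 67 higher in WT γδ minus WT DP, 0 to 30 higher in WT iNKT minus WT γδ, 26 to 74 higher in L-DKO iNKT minus L-DKO DP, 1 to 5 lower in L-DKO iNKT minus Id3KO γδ, 5 to 58 lower in the iNKT change minus the γδ change and 0 to 3 lower in the iNKT change minus the DP change. The difference of Rpl35a in WT γδ minus WT DP ran from -0.75 to 0.49. No paired analysis was possible because the columns carry no replicate number. The depth of the libraries is unknown, so no counting error is given.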
